A study of Mus musculus with 29 samples.

Results

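The choroid plexus is the secretory epithelium that lines folds of the brain ventricles and makes cerebrospinal fluid. In RNA-seq counts of mouse cortex, 10 genes that mark this epithelium were followed sample by sample: Ttr, Folr1, Kl, Aqp1, Clic6, Kcnj13, Otx2, Sostdc1, Prlr and Tmem72. They were taken by symbol from the count files, where each matched 1 of the 25746 Ensembl genes, and all 10 passed the filter on low counts. They had been selected on their CPM, which varies between samples, so their levels and fitted differences are described here. Counts of them that pass the limits of a test appear only where the processing is varied, and they test nothing. A further 27 choroid plexus genes, also listed with earlier results of these data known, carry the tests. Their summed level is highest in the same 13 samples as Ttr, so these tests are not independent of the choice of the 10 genes.

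The study compared mice with a photothrombotic stroke, in which a light-activated dye clots vessels of the right sensorimotor cortex, across models of immunosuppression used for cell grafting. All mice were 3 months old, and stroked tissue was taken 21 days after injury (21 dpi). Mice of both sexes were used. The labels of stroked Imm2 samples hold an f or an m, whose meaning is not given in the sources used here. Non-stroked cortex gave 4 WT, 3 Rag2-/- and 4 NSG samples. Stroked cortex gave 4 WT, 3 Rag2-/- and 3 NSG samples and 2 groups of samples from WT mice given tacrolimus. In 3 samples the drug was given from day 0 (WT-Tacr acute) and in 5 from day 7 (WT-Tacr delayed), through a pump under the skin. Tacrolimus blocks calcineurin and with it T cell activation. Without Rag2, mature T and B cells are missing from Rag2-/- mice. NSG mice, on the NOD background, carry the scid change in Prkdc and a null Il2rg and also lack NK cells. WT mice were of C57BL/6 background. Control RNA is described as contralesional in the methods and as naïve in the results, hence the term non-stroked. The methods list fewer NSG and tacrolimus animals for RNA-seq than there are samples, so whether every sample is a separate mouse is open in the sources used here, and p-values measure the spread between samples. The 4 non-stroked WT samples served as controls for WT, WT-Tacr acute and WT-Tacr delayed alike.

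Sample labels begin with Imm2 in 20 samples and with TF in 9 samples. These label sets are called cohorts here, and what the prefix stands for is not given in the sources used here. All non-stroked, Rag2-/- and NSG samples are in Imm2, and all WT-Tacr delayed samples are in TF. Stroked WT samples are 2 in Imm2 and 2 in TF, and WT-Tacr acute samples are 1 in Imm2 and 2 in TF. Levels are given as CPM, the count of a gene scaled to 1000000 counts per sample, with TMM-adjusted library sizes. Total counts ran from 32507506 to 43403413 in Imm2 and from 17789044 to 29928311 in TF samples. At these depths 3 counts correspond to 0.0730 to 0.149 CPM, and levels at or below 3 counts are treated as a floor.

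Each gene has a known role in the epithelium. Ttr encodes transthyretin, the thyroxine carrier that the choroid plexus secretes into the cerebrospinal fluid, and Folr1 encodes the receptor that carries folate across it. Aqp1 is the water channel of the apical membrane, Kcnj13 an inward rectifier potassium channel and Clic6 a member of the chloride intracellular channel family. Kl encodes klotho, a co-receptor for fibroblast growth factors, and Prlr the prolactin receptor. Sostdc1 encodes a secreted antagonist of BMP and Wnt signalling, Otx2 a homeodomain transcription factor needed to form the choroid plexus, and Tmem72 a transmembrane protein. The epithelium lies in the ventricles and is no part of the cerebral cortex. Kl, Aqp1, Otx2 and Prlr are also made by other cells of the brain or its coverings.

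The promoters of those of the 10 genes with a RefSeq entry were searched for the core of the site bound by Otx2 and related homeodomain proteins. Levels that vary together in bulk cortex do not show shared control of promoters, and the search is a description. The table held windows for 6 of the 10 genes, and Ttr, Folr1, Clic6 and Sostdc1 had no entry. The motif was TAATC on either strand, which reads GATTA on the other, within the 250 bases before a gene start in build GRCm38.p6. Windows are shown for the 3 genes with a window whose RefSeq start is also the GENCODE start, 5′ to 3′ along the gene, with the motif in capitals.
Kcnj13, chr1:87394730-87394979, minus strand: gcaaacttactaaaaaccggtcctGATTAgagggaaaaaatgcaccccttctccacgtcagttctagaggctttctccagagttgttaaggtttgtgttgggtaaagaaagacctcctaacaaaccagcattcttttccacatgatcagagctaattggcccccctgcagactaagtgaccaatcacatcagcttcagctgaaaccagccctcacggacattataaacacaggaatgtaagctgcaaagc
Kl, chr5:150952357-150952606, plus strand: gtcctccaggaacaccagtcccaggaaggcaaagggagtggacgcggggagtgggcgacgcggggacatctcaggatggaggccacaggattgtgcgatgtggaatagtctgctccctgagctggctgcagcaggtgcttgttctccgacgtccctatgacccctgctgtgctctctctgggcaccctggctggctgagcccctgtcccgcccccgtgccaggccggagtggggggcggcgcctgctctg
Prlr, chr15:10176988-10177237, plus strand: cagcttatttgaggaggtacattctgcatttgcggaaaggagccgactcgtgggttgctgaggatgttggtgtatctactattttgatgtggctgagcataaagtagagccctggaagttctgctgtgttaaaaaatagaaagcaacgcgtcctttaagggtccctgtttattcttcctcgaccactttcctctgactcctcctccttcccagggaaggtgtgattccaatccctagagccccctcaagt
The Kcnj13 window has the motif once, with its first base at -226 from the gene start, and the Kl and Prlr windows do not contain these letters. In total 3 of the 11 windows of the 6 genes held it (27.3%), namely those of Kcnj13 and Tmem72 and 1 of the 4 windows of Otx2. Windows of a gene were counted separately even where they overlap, as some do for Otx2. It was in 19.8% of all 32851 promoter windows of the same length and in 20% of the 30 windows of the further choroid plexus genes. The longer TAATCC, which contains TAATC, was in 1 Otx2 window and in 6.25% of all windows.

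Ttr divided the samples into 2 sets with a wide gap between them. In 13 of the 29 samples it lay at 134 to 1398 CPM, and in the other 16 at 0.871 to 9.54 CPM. The highest level was 1606 times the lowest. Samples from both sides of the gap occurred within 6 of the 8 groups, and 5 of the 11 non-stroked and 8 of the 18 stroked samples lay above it.

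**Figure D1:**
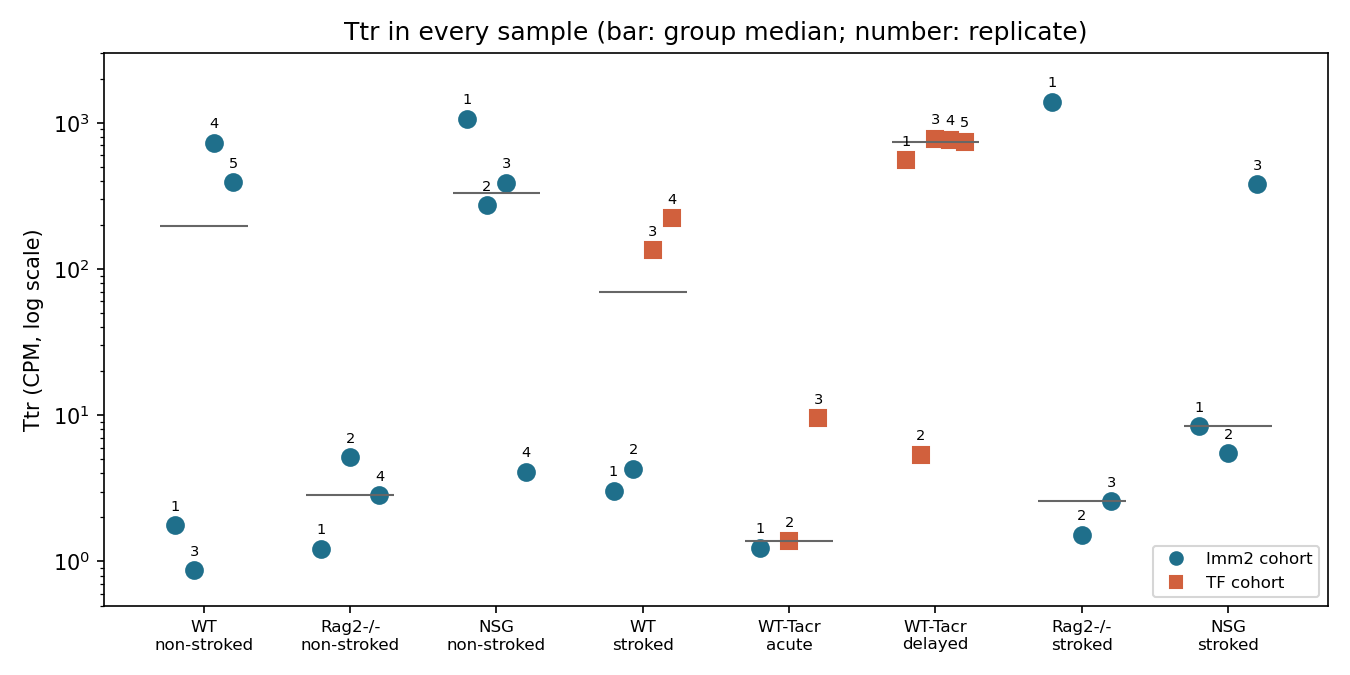
Ttr level in CPM on a log scale for each of the 29 samples, by group, with circles for Imm2 and squares for TF samples, replicate numbers above the points and grey bars at group medians. No sample lies between 9.54 and 134 CPM, and most groups hold samples on both sides of this gap.

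Among the non-stroked samples, Ttr was 1.77, 0.871, 729.5 and 391 CPM in the WT mice (replicates 1, 3, 4 and 5). It was 1.22, 5.17 and 2.83 CPM in the Rag2-/- mice (replicates 1, 2 and 4) and 1060.4, 273, 390.3 and 4.11 CPM in the NSG mice (replicates 1 to 4). Thus 2 of 4 WT, 0 of 3 Rag2-/- and 3 of 4 NSG samples were above the gap, and the ranges of WT and NSG mice overlapped. In stroked cortex, Ttr was 3.05, 4.31, 134 and 223 CPM in the WT mice (replicates 1 to 4), of which the first 2 are Imm2 and the others TF samples. The WT-Tacr acute mice had 1.24, 1.37 and 9.54 CPM. The WT-Tacr delayed mice had 553, 5.39, 776, 766 and 738 CPM. The acute samples were therefore all below the gap and 4 of the 5 delayed samples above it, with replicate 2 of the delayed group inside the range of the acute group. The stroked Rag2-/- mice had 1398, 1.52 and 2.57 CPM and the stroked NSG mice 8.40, 5.51 and 380.1 CPM. A single sample in each of these 2 groups was above the gap, and Rag2-/- replicate 1 was the highest of all samples.

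By group median, Ttr ran from WT-Tacr delayed (738 CPM) over non-stroked NSG (332 CPM), non-stroked WT (197 CPM), stroked WT (69.1 CPM), stroked NSG (8.40 CPM), non-stroked Rag2-/- (2.83 CPM) and stroked Rag2-/- (2.57 CPM) to WT-Tacr acute (1.37 CPM). Neighbours in this order overlapped, except for stroked NSG and non-stroked Rag2-/- mice, whose ranges did not. By cohort, 7 of the 20 Imm2 samples and 6 of the 9 TF samples were above the gap.

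The other 9 genes largely followed Ttr. The 13 samples with the highest Ttr were also the 13 with the highest Folr1, Clic6 and Tmem72. For Kl, Kcnj13, Otx2, Sostdc1 and Prlr, 12 of these 13 samples were among the 13 highest, and for Aqp1 10 were. Each gene was ranked against the mean standardised log2 CPM of the other 9, and Spearman's rho over all 29 samples ran from 0.80 for Aqp1 and 0.85 for Kl to 0.94 for Folr1 and Ttr. Since the samples form 2 sets, the values within each set say more. Among the 13 samples above the gap rho was 0.67 for Aqp1 and 0.82 (Kl) to 0.97 (Ttr) for the others. Among the 16 below it rho was 0.22 for Kl, 0.29 for Tmem72, 0.32 for Prlr and 0.67 for both Ttr and Folr1. All of these share the libraries and their scaling, and they are descriptions with no test.

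**Figure D2:**
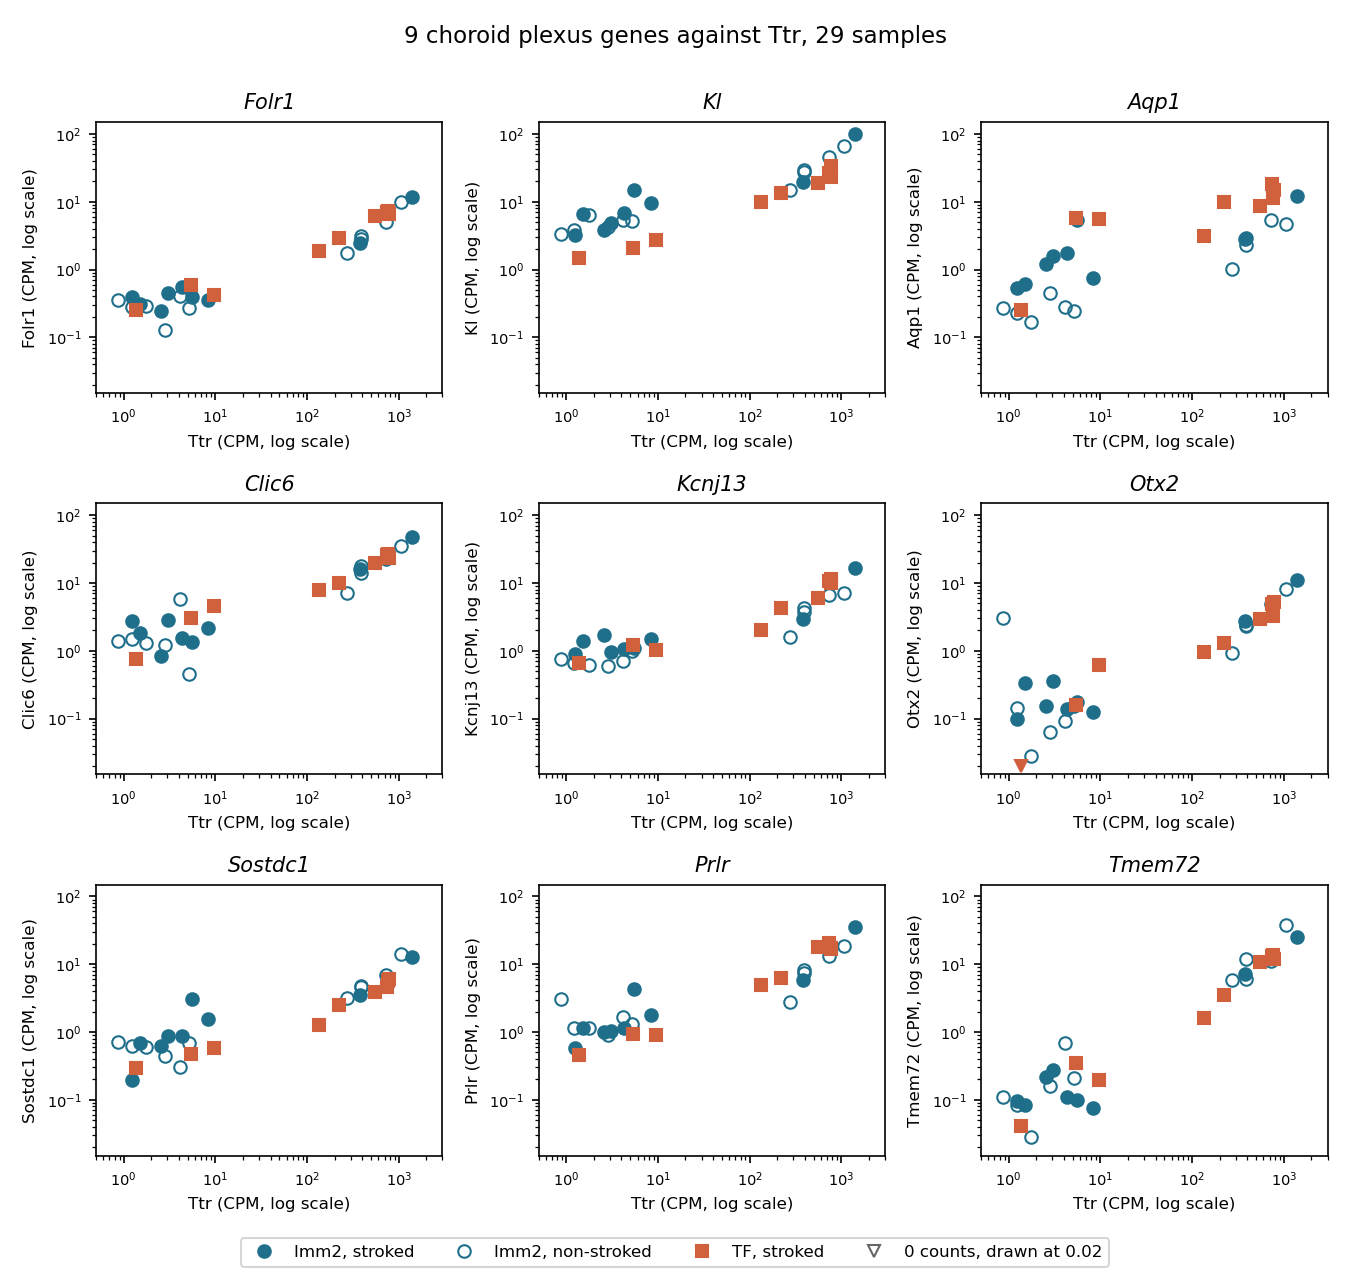
Each of the other 9 genes (vertical axis) against Ttr (horizontal axis), both in CPM on log scales, 1 point per sample, with filled symbols for stroked and open symbols for non-stroked samples. Folr1, Clic6 and Tmem72 lie above all other samples wherever Ttr is 134 CPM or more, Aqp1 overlaps between the 2 sets, and Otx2 has 1 non-stroked sample at 3.02 CPM with Ttr at 0.871 CPM.

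Folr1, the folate receptor, was at 0.285, 0.354, 5.04 and 2.83 CPM in the non-stroked WT mice, in the same sample order as above. It was at 0.283, 0.274 and 0.127 CPM in non-stroked Rag2-/- mice and at 9.89, 1.75, 3.12 and 0.402 CPM in non-stroked NSG mice. The 2 WT and 3 NSG samples with much Ttr thus had 1.75 CPM or more, and the others 0.402 CPM or less. After stroke Folr1 reached 6.23, 0.598, 6.5, 7.33 and 6.94 CPM in WT-Tacr delayed mice, and 0.389, 0.25 and 0.425 CPM in WT-Tacr acute mice. In stroked Rag2-/- mice it was 11.7, 0.305 and 0.245 CPM. The lowest delayed sample (replicate 2) was above every acute sample, so that these groups did not overlap for Folr1, in contrast to Ttr.

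Tmem72 ran from 1 count in a sample (0.0285 CPM) to 38.1 CPM. It was 0.0285, 0.109, 11 and 6.05 CPM in non-stroked WT mice and 38.1, 5.94, 12.1 and 0.681 CPM in non-stroked NSG mice. In WT-Tacr acute mice it was 0.0974, 0.0416 and 0.193 CPM, which are 1 to 5 counts. The delayed mice had 10.9, 0.346, 11.9, 13.5 and 13 CPM. Tmem72 was at or below 3 counts in 5 of the 29 samples, all with Ttr below the gap.

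Kl, the klotho gene, kept a level of at least 1.5 CPM in every sample. The stroked Rag2-/- mice had 100.3, 6.60 and 3.80 CPM and the stroked NSG mice 9.49, 14.9 and 19.2 CPM. NSG replicate 2, with Ttr at 5.51 CPM, thus had as much Kl as samples above the gap, the lowest of which had 9.82 CPM. The same sample had Sostdc1 at 3.04 CPM and Prlr at 4.32 CPM, the highest of the 16 samples below the gap for both genes. It also had the highest summed level of 8 hippocampal markers of all samples (261 CPM) and 1230 CPM of 10 leptomeningeal and fibroblast markers, second only to 1622 CPM in WT-Tacr delayed replicate 5. The part of these markers in its Kl, Sostdc1 and Prlr was not tested.

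Clic6 ranged from 0.456 to 46.9 CPM and Kcnj13 from 0.604 to 16.4 CPM, both highest in stroked Rag2-/- replicate 1. Below the gap in Ttr, Clic6 was highest in non-stroked NSG replicate 4 (5.82 CPM), which also had the highest summed level of 9 striatal markers of all samples (2436 CPM). The part of striatal tissue in this value was not tested. Kcnj13 below the gap was highest in stroked Rag2-/- replicate 3 (1.72 CPM), just above the lowest sample over the gap, non-stroked NSG replicate 2 (1.57 CPM).

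Otx2 was the exception in a single sample. In non-stroked WT mice it was 0.0285, 3.02, 4.83 and 2.42 CPM, and the second of these values belongs to replicate 3, the sample with the least Ttr of all 29. Prlr was also at 3.02 CPM in this sample, against 1.14 CPM in replicate 1. Genes of the midbrain and its raphe nuclei were high there as well, and these were looked up after the values were seen. The 8 genes by which replicate 3 exceeded the highest of the other 28 samples the most, with 0.2 CPM added to both, were Slc6a4, Tph2, Fev, Pax5, Mab21l2, Gata3, Pax7 and En1. Tph2, the enzyme that starts serotonin synthesis in neurons, was 19.6 CPM there and at most 2.0 CPM elsewhere. Slc6a4, the serotonin transporter, was 13.7 CPM against at most 0.581 CPM. The midbrain transcription factors Pax7 and En1 were at 4.43 and 1.90 CPM against at most 0.746 and 0.247 CPM. The part of such tissue in the Otx2 and Prlr levels of this sample was not tested. Elsewhere below the gap Otx2 did not exceed 0.618 CPM, and it had 0 counts in WT-Tacr acute replicate 2, which allows up to 3 counts.

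Where Ttr was above the gap, the ratio of most genes to it varied less than Ttr itself. Per 1000 CPM of Ttr, these 13 samples had 6.41 to 14.0 CPM of Folr1 and 26.0 to 58.4 CPM of Clic6. The highest ratio was 2.13 times the lowest for Sostdc1, 2.18 times for Folr1, 2.25 times for Clic6, 2.28 times for Otx2 and 2.43 times for Kl. It was 2.99 times for Tmem72, 3.31 times for Kcnj13 and 3.56 times for Prlr. Over the same 13 samples Ttr itself ranged from 134 to 1398 CPM. For Aqp1 the ratio ran from 3.71 to 45.1 CPM per 1000 CPM of Ttr, 12.1-fold. The Aqp1 ratio was 3.71 to 8.74 in Imm2 samples, stroked or not, and 14.6 to 45.1 in TF samples, all stroked. In WT-Tacr delayed samples the ratio was 30.6 to 44.0 for Kl and 6.31 to 7.84 for Sostdc1. All other samples above the gap had at least 50.6 for Kl and 9.15 for Sostdc1. The part of cohort and treatment in these ratios was not tested. Scaled to exon length in stroked Rag2-/- replicate 1, Ttr was at 1179 CPM per kb of exon, Kcnj13 at 12.9, Clic6 at 12, Kl at 10.8, Sostdc1 at 7.18 and Folr1 at 5.11 CPM per kb. Aqp1 was at 4.65, Otx2 at 2.60, Prlr at 2.33 and Tmem72 at 1.48 CPM per kb, with lengths that join all annotated transcripts of a gene.

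Aqp1 departed from the other genes in stroked cortex, above the gap mainly in TF samples. There its ratio per 1000 CPM of Ttr was at least 14.6 in TF samples, all of them stroked, and at most 8.74 in Imm2 samples. Stroked Imm2 samples above the gap had 7.49 (NSG replicate 3) and 8.74 (Rag2-/- replicate 1), beside 3.71 to 7.55 in non-stroked samples. The part of the cohort was not tested. In non-stroked WT mice Aqp1 was 0.171, 0.272, 5.41 and 2.31 CPM and followed Ttr. The WT-Tacr acute mice had 0.535, 0.25 and 5.52 CPM, the last with Ttr at 9.54 CPM. The WT-Tacr delayed mice had 8.53, 5.67, 14.7, 11.2 and 18.6 CPM, so replicate 2, with Ttr at 5.39 CPM, was above all non-stroked WT samples for Aqp1. Stroked NSG replicate 2 had 5.34 CPM with Ttr at 5.51 CPM, and the 2 stroked WT samples of Imm2 had 1.59 and 1.75 CPM. Below the gap, the 6 non-stroked samples had Aqp1 at 0.171 to 0.445 CPM.

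Lists of other tissue moved with these Aqp1 values, the meningeal list the most. It holds 10 genes of the leptomeninges and fibroblasts, led by Igf2 and the collagen gene Col1a2, and all 10 were measured. Across the 16 samples below the gap Spearman's rho of Aqp1 with the summed list was 0.90, and across the 13 above it 0.81, over samples that share their library scaling. For Ttr the same values were 0.73 and 0.14. The rho of Aqp1 with the cortical list was -0.75 below and -0.77 above the gap, and with the ependymal list 0.71 and 0.13. The summed list was 114.8 to 191 CPM in non-stroked WT mice and 559 to 1622 CPM in WT-Tacr delayed mice. Non-neural cells such as fibroblasts and endothelium also make Aqp1, and their part in these levels was not tested. In bulk tissue, more cells of a type and more RNA per cell cannot be told apart.

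**Figure D3:**
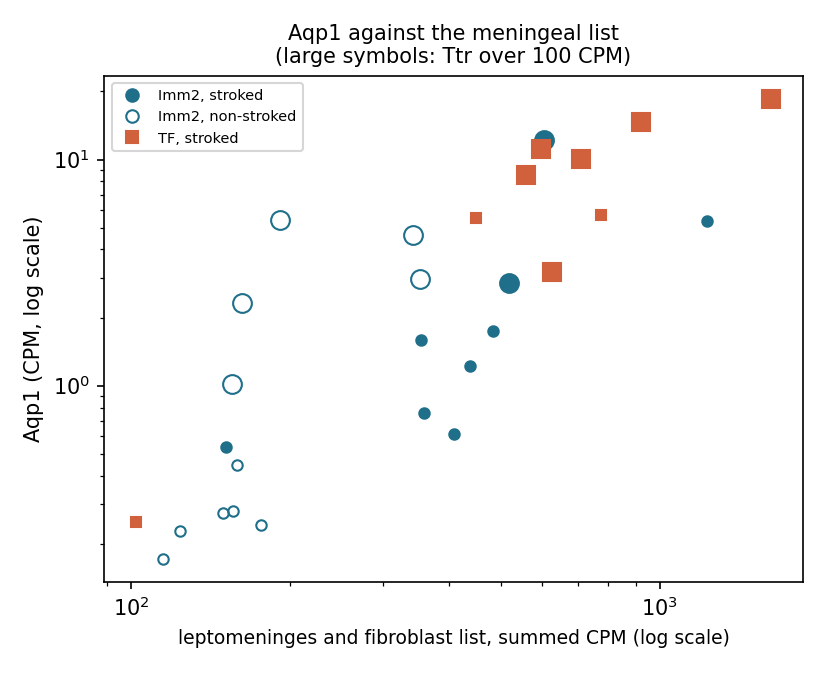
Aqp1 (vertical axis) against the summed level of 10 leptomeningeal and fibroblast genes (horizontal axis), both in CPM on log scales, for 29 samples, with large symbols where Ttr exceeds 100 CPM. Some stroked samples with little Ttr reach 5.34 to 5.67 CPM of Aqp1, with the meningeal list at 449 to 1230 CPM. Stroked WT replicate 2 (484 CPM of the list) and Rag2-/- replicates 2 and 3 (408 and 437 CPM) have less Aqp1. Non-stroked samples with little Ttr stay at or below 0.445 CPM.

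The spread within groups was far above that of most genes. On the log2 CPM scale, the standard deviation within groups was 3.61 for Ttr, 2.60 for Tmem72 and 2.10 for Otx2, and 1.25 (Kcnj13) to 1.69 (Clic6) for the other 7. The median of all 17031 genes tested was 0.205. Ttr ranked 4, Tmem72 7 and Otx2 10 among all genes, and Kcnj13, the least variable of the 10, ranked 79. Differences between group means made up 32.9% (Otx2) to 52.4% (Aqp1) of the variance of these genes, against a median of 56.6% over all genes. This share is not corrected for the number of groups, so scatter between samples alone also yields a positive share. The genes were chosen for varying, and these ranks describe that choice.

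Other genes with the same pattern were found by Spearman's rho with the mean standardised level of the 10 genes over 29 samples, among 14354 genes whose mean reached 1 CPM. The 8 most alike were Calml4 (0.98), F5 (0.96), Drc7 (0.93), Wdr86 (0.92), Mfrp (0.92), Cldn2 (0.92), Trpv4 (0.89) and Slc2a12 (0.89). Of these, Calml4, F5 (coagulation factor V), Mfrp, Cldn2 (the tight junction protein claudin 2) and Slc2a12 (a glucose transporter) are in the list of further choroid plexus genes. Trpv4, a calcium-permeable channel of the apical membrane, Drc7, a part of motile cilia, and Wdr86 are not. Within the 13 samples above the gap rho was 0.85 to 0.97 for these 8 genes, and within the 16 below it 0.42 (Slc2a12) to 0.96 (Calml4). Cldn2 ranged from 0 to 11.2 CPM and F5 from 0.375 to 49.8 CPM, both highest in stroked Rag2-/- replicate 1.

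The further choroid plexus genes of highest level were Enpp2, Trpm3, Ace, Cab39l and Car12, all of which neural or other cells also express. Enpp2, which encodes the secreted enzyme autotaxin, was 252, 276, 597 and 481 CPM in non-stroked WT mice, so that the same 2 samples as for Ttr were high above a raised base. It was 1096, 198 and 231 CPM in stroked Rag2-/- mice. Trpm3, a cation channel, ranged from 57.4 to 197 CPM and Cab39l from 22.2 to 39.6 CPM over all samples. The summed level of the 27 genes was highest in the same 13 samples as Ttr, and its rho with Ttr was 0.98 within these and 0.27 within the other 16. Enpp2 (mean 361 CPM) and Trpm3 (mean 100 CPM) weigh most in this sum, so it does not show that each of the 27 genes followed Ttr.

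Summed marker lists of neighbouring tissue were set beside Ttr. Of the 13 samples with the highest Ttr, 11 were among the 13 highest for 10 ependymal cilia genes, led by Foxj1 and Rsph1, 10 for 7 thalamic genes (Zic1, Slc17a6) and 9 for 9 striatal genes (Ppp1r1b, Penk). For the 10 leptomeningeal, the 8 hippocampal (Prox1, Fibcd1) and the 8 hypothalamic genes (Trh, Pomc) it was 8 each, for 5 blood genes (Hbb-bs, Hba-a1) 7 and for 7 cortical genes (Tbr1, Cux2) 4. Within the 13 samples the rho of Ttr with the ependymal list was 0.42, with the hippocampal list 0.36 and with the striatal list -0.13. Within the 16 samples below the gap these values were 0.62, 0.21 and 0.11. With the cortical list rho was -0.16 above and -0.47 below the gap. Below it, the ependymal list was thus closer to Ttr than the further choroid plexus list (0.27). Ependyma lines the ventricles next to the choroid plexus, and striatum, hippocampus and thalamus border on them. The cohorts differed in some of these lists. The cortical list was 430.2 to 804 CPM in Imm2 and 219 to 552 CPM in TF samples, and the median of the striatal list was 613 CPM in Imm2 and 1425 CPM in TF. The part of neighbouring tissue in the levels of the 10 genes was not tested.

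**Figure D4:**
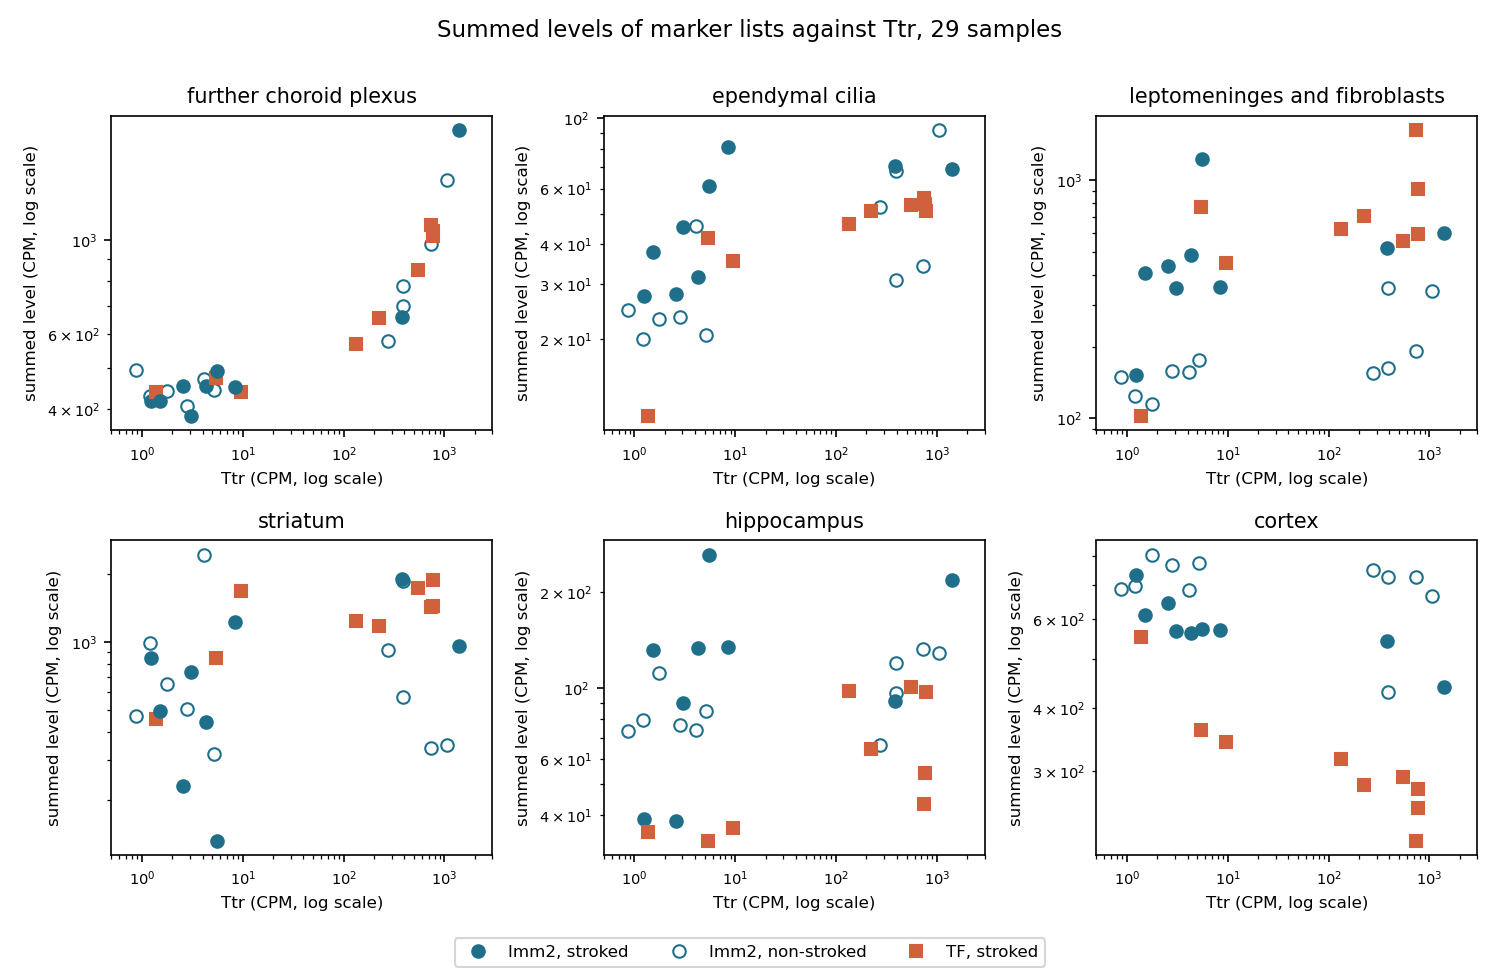
Summed CPM of 6 marker lists (vertical axes) against Ttr in CPM (horizontal axes), all on log scales, for 29 samples. The list of 27 further choroid plexus genes is highest in the 13 samples with Ttr at 134 CPM or more, while the other lists overlap between samples with much and little Ttr.

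Groups were then compared with edgeR's quasi-likelihood test in 1 fit of 8 groups over 17031 genes. Genes whose adjusted p was below 0.05 were called when their level also changed more than 1 log2 unit either way. The question was whether the 27 further choroid plexus genes reached calls in the comparisons the design makes. Genes of this list that vary with the 10 genes are not separate events in a count of calls. For the 10 genes, chosen for varying between these samples, the fitted log2 fold changes are given as a description. Whether the samples of 2 groups overlap for a gene is also a description, as the share over all genes is not given here. The 3 stroke comparisons of WT, WT-Tacr acute and WT-Tacr delayed share their control samples. No non-stroked samples were given tacrolimus, so for WT-Tacr acute and WT-Tacr delayed mice stroke and drug cannot be told apart.

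Stroke in WT mice called 0 of the 27 further genes (7.3% of all genes were called). The log2 fold changes of the 10 genes had a median of -1.09, from -1.95 (Otx2) to 1.01 (Aqp1), against a median near -0.000445 over all genes. Stroke in NSG mice also called 0 of 27 (5.48% of all genes), and the median of the 10 genes was -1.22. Stroke in WT-Tacr acute mice called 0 of 27 (2.58% of all genes). There the median of the 10 genes was -3.14, and the value of Ttr was -6.15 (SE 2.55), beside non-stroked controls at 0.871 to 729.5 CPM. At an unadjusted p below 0.05 edgeR returned 2, 2 and 7 of the 27 genes in WT, NSG and WT-Tacr acute mice, where 39.4%, 35.9% and 27.6% of all genes passed. DESeq2 called 0, 0 and 5 of the 27, and 7.37%, 5.55% and 3.31% of all genes. Lists of other tissue moved in the same comparisons. In WT-Tacr acute mice the hippocampal list had 3 of 8 genes called lower and a median of -1.67, with sums of 35.4 to 38.9 CPM against 73.4 to 133 CPM in the controls. In NSG mice 3 of the 8 hippocampal and 5 of the 10 meningeal genes were called higher, and in WT mice 5 of the 10 meningeal and 2 of the 10 ependymal genes. Their part was not tested.

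Stroke in Rag2-/- mice called 4 of the 27 further genes, all higher (4.33% of all genes were called, 4.22% higher). The 4 genes were 1500015O10Rik, Msx1, Wfdc2 and Mfrp. 1500015O10Rik, also known as Ecrg4, which encodes a secreted peptide precursor, was 0.736, 0.517 and 0.413 CPM in non-stroked and 16.4, 4.49 and 4.44 CPM in stroked samples, with a log2 fold change of 3.91 (SE 1.05, edgeR adjusted p = 0.02). Msx1, a homeobox gene, was 2.07, 2.98 and 3.05 CPM in non-stroked and 11.7, 5.35 and 6.59 CPM in stroked samples, with a log2 fold change of 1.55 (SE 0.450, edgeR adjusted p = 0.0315). These genes were higher in all 3 stroked than in all 3 non-stroked samples, and highest in replicate 1. Mfrp, which encodes a frizzled-related membrane protein, was 7.16, 7.23 and 7.46 CPM in non-stroked and 54.2, 11 and 11.1 CPM in stroked samples, with a log2 fold change of 1.80 (SE 0.569, edgeR adjusted p = 0.0489). Wfdc2, a protease inhibitor gene, had 0 to 4 counts in non-stroked and 7 to 55 counts in stroked samples (edgeR adjusted p = 0.0400). DESeq2 called 15 of the 27 genes and 5.03% of all genes.

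Replicate 1 carried the size of these differences. Its label holds an f and those of the other 2 stroked samples an m. In stroked NSG mice the label of the sample above the gap holds an m and the others an f. The part of sex was not tested. The log2 fold changes of the 10 genes were 2.99 (Sostdc1) to 7.25 (Ttr, SE 2.71), all positive, and the median of the 27 was 1.90. Without stroked replicate 1 the 10 genes ran from -0.59 (Ttr, SE 2.54) to 1.58 (Aqp1), 7 of them above 0, and the median of the 27 genes was 0.33. Folr1 was then 0.26 (SE 1.58), with 0.305 and 0.245 CPM beside 0.127 to 0.283 CPM in non-stroked samples. Without stroked replicate 1, or without any 1 of the 3 non-stroked Rag2-/- samples, 0 of the 27 genes were called, while 12 and 11 were called without stroked replicates 2 and 3. The share of all genes called in these fits is not given here. Stroked replicate 1 also stood apart in lists of other tissue. Its meningeal list was 603 CPM, against 408 and 437 CPM in the other 2 stroked samples, its ependymal list 69.1 CPM against 37.8 and 27.9 CPM, and its hippocampal list 218 CPM against 132 and 38.3 CPM. Beside the 4 further genes, 4 of the 10 meningeal, 3 of the 10 ependymal and 1 of the 8 hippocampal genes were called higher, and their part was not tested.

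Stroke in WT-Tacr delayed mice called 8 of the 27 further genes, all higher (15.5% of all genes were called, 11.5% higher). Among the genes called, those with the smallest p were Rdh5, 1500015O10Rik, Col8a2, Col8a1 and Car12. Rdh5, a retinol dehydrogenase gene, was 9.62, 10.7, 16.6 and 11.9 CPM in non-stroked WT and 26.5, 27.5, 36.1, 34.1 and 34.7 CPM in WT-Tacr delayed samples, with a log2 fold change of 1.38 (SE 0.231, edgeR adjusted p = 3.2e-05). Rdh5 did not follow the gap in Ttr, since delayed replicate 2 was as high as replicate 1. In all delayed samples, replicate 2 included, 1500015O10Rik, Col8a2 and Col8a1 were at least 12.3, 11.7 and 9.89 CPM. Non-stroked WT samples had at most 5.91, 7.85 and 8.70 CPM, whatever their Ttr. For Car12 the groups overlapped (lowest delayed 20.4 CPM, highest control 24.1 CPM). The collagen VIII genes Col8a2 and Col8a1 had log2 fold changes of 1.92 (SE 0.522, edgeR adjusted p = 0.00336) and 1.80 (SE 0.491, edgeR adjusted p = 0.00337). 1500015O10Rik had 2.86 (SE 0.772, edgeR adjusted p = 0.00317) and Car12, a carbonic anhydrase, 1.11 (SE 0.424, edgeR adjusted p = 0.0298). DESeq2 also called 8 of the 27 genes and 15.5% of all genes. Of the 10 genes, Aqp1 had a log2 fold change of 2.51 (SE 0.955), and its 5 stroked samples were all above the 4 controls. The other 9 genes had -0.00 (Kl) to 1.41 (Kcnj13) and overlapped. The meningeal list had 8 of 10 genes called higher in the same comparison, the ependymal list 6 of 10, the striatal list 7 of 9 and the hypothalamic list 5 of 6 tested, and the cortical list had 7 of 7 called lower. The count of the 27 ran from 4 (without non-stroked WT replicate 1 or 3 or delayed replicate 4) and 5 (without delayed replicate 3 or 5) to 12 (without non-stroked WT replicate 4). Stroke, tacrolimus and cohort are tied here, as all delayed samples are treated and TF and all controls untreated and Imm2. With the cohort as a covariate 0 of the 27 genes were called. For this fit and those without 1 sample, the share of all genes called is not given here.

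WT-Tacr delayed against WT-Tacr acute mice gave the most calls, 14 of the 27 further genes, all higher in the delayed samples (5.75% of all genes were called, 5.22% higher). Col8a2 (log2 fold change 2.42, SE 0.609, edgeR adjusted p = 0.0123), Msx1 (1.52, SE 0.425, edgeR adjusted p = 0.0171) and Cldn1, a tight junction gene (2.14, SE 0.627, edgeR adjusted p = 0.0206), had the smallest p. They were followed by Wfdc2 (2.95, SE 0.870, edgeR adjusted p = 0.0213) and Slc2a12 (1.60, SE 0.491, edgeR adjusted p = 0.0256). The median of the 27 genes was 2.42, against -0.02 over all genes, and DESeq2 called 19 of them and 6.4% of all genes. Of the 10 genes, Prlr was 18.1, 0.945, 16.6, 17.6 and 20.4 CPM in delayed and 0.584, 0.458 and 0.888 CPM in acute samples, with a log2 fold change of 4.51 (SE 1.26). Kcnj13 was 5.91, 1.23, 9.97, 11.4 and 10.6 CPM against 0.901, 0.666 and 1.04 CPM (log2 fold change 3.15, SE 0.954). For both genes even the low delayed replicate 2 was above the acute samples, and for Kl, Sostdc1, Clic6, Otx2 and Ttr the groups overlapped through that sample. How many of all genes do not overlap between these groups is not given here. Ttr had the largest log2 fold change of the 10, 7.17, with an SE of 2.64.

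The acute group rests on 3 samples, and without its replicate 1 or without its replicate 2 the count was 0 of 27. For these same 2 samples the number in the title differs from that in the name of the deposited file, and the file recorded for each sample was used. Without delayed replicate 3, 4 or 5 the count was 5, 7 and 2. Within TF alone (2 acute and 5 delayed samples), and in a fit of only these 2 groups, it was also 0. For these fits the share of all genes called is not given here. Beside these genes, 6 of the 10 meningeal, 4 of the 10 ependymal, 2 of the 6 hypothalamic and 1 of the 8 hippocampal genes tested were called higher, and 3 of the 7 cortical genes lower. Their part was not tested.

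**Figure D5:**
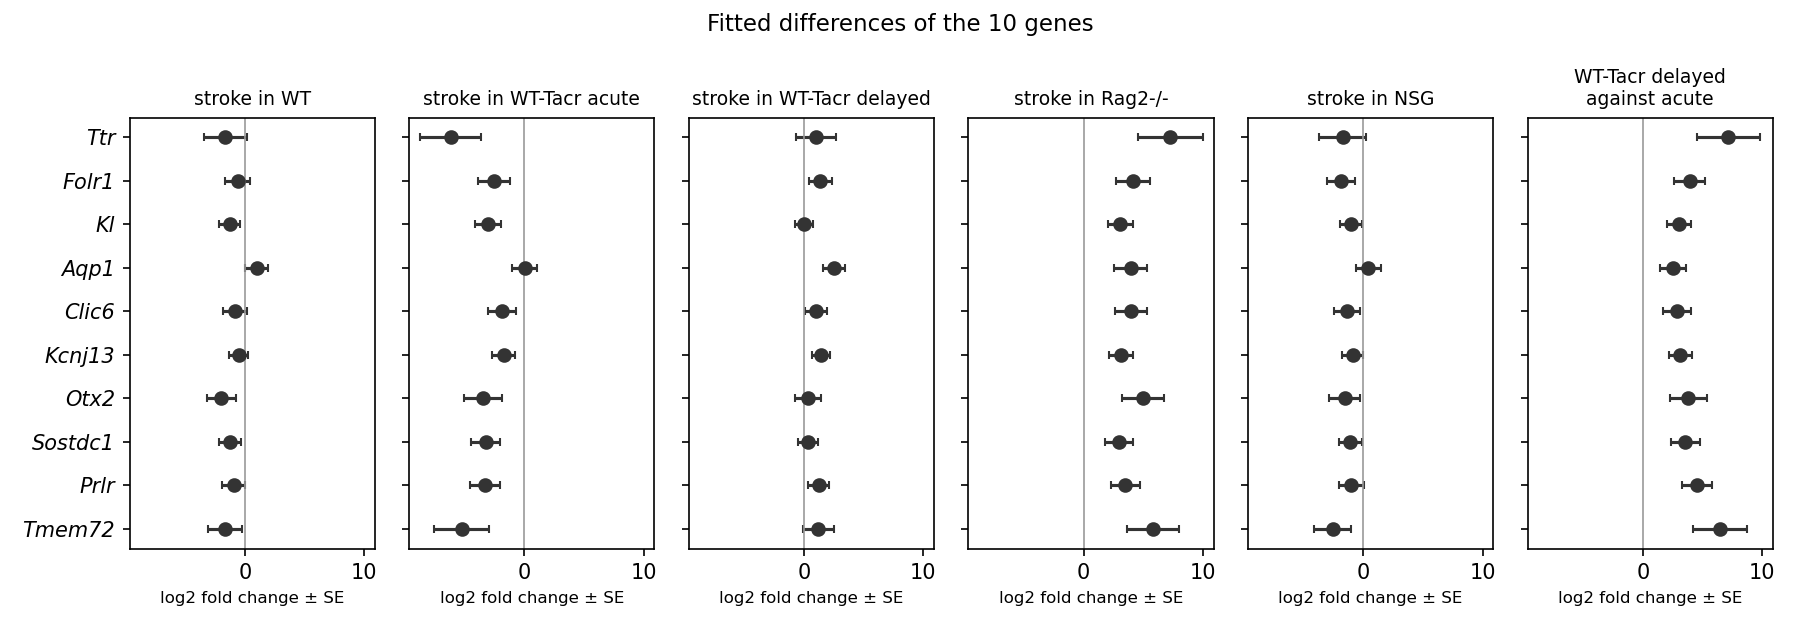
Log2 fold change of the 10 genes with its SE in the 5 stroke comparisons, each against the non-stroked controls, and in WT-Tacr delayed against acute mice. All 10 values are above 0 in Rag2-/- mice, where without stroked replicate 1 they run from -0.59 to 1.58, and in the delayed against acute comparison.

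The remaining comparisons called 0 of the 27 genes. Of all genes, 3.36% were called in non-stroked NSG against WT mice, 0.00587% in non-stroked Rag2-/- against WT mice and 2.8% in non-stroked NSG against Rag2-/- mice. The share was 0% for stroked WT-Tacr acute against WT, 0% for stroked WT-Tacr delayed against WT, 0% for the stroke response of Rag2-/- against that of WT mice and 0.0117% for that of NSG against WT mice. At an unadjusted p below 0.05, edgeR returned 1, 9, 17, 2, 12, 17 and 0 of the 27 genes in this order. Of all genes, 22.9%, 2.05%, 18.2%, 12.7%, 20.3%, 4.19% and 12.7% passed the same limit. Further genes that vary together are not separate events, so these counts and shares do not compare like with like. The Rag2-/- stroke response includes stroked replicate 1, with Ttr at 1398 CPM against 1.52 and 2.57 CPM. The unadjusted counts are not given without that sample. DESeq2 called 9 of the 27 genes in non-stroked NSG against Rag2-/- mice and 0 in the other 6, where 1 gene had no adjusted p for the stroke response of NSG against WT mice. Its share of all genes was 3.65%, 0.0117%, 3.27%, 0.0117%, 0.141%, 0% and 0.422% in this order. All 10 genes had positive fold changes in non-stroked NSG against Rag2-/- mice, with a median of 3.61, where 3 of 4 NSG and 0 of 3 Rag2-/- samples lay above the gap in Ttr. In that comparison 1 of the 10 ependymal and 2 of the 6 hypothalamic genes tested were called higher. In non-stroked Rag2-/- against WT mice all 10 were negative, with a median of -2.97. For these 2 comparisons the median of the 27 genes was 1.49 and -0.98, or 1.22 and -0.88 with genes at 0 counts in a whole group set at the floor of 3 counts over that group.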

How the data were processed

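RNA from mouse cortex was measured by RNA-seq in 29 samples. Per the study's methods, polyA RNA was prepared with a stranded kit, with alignment and counting at a core facility. The authors deposited raw, unnormalized counts per Ensembl gene, 1 file per sample. The aligner, the genome build and the use of strand in counting are not given in the sources used here. Names and positions are from GENCODE M21 (GRCm38), where 25712 of 25746 IDs were found. Groups, replicate numbers and cohorts were taken from the sample labels. For 2 WT-Tacr acute samples the number in the title differs from that in the file's name, and the file recorded for the sample was used. No 2 samples had identical counts.

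Counts were fitted with edgeR 4.0.16 in R 4.3.3 (TMM, filterByExpr by group, quasi-likelihood, 1 fit of 8 groups, 21 residual degrees of freedom), with Benjamini-Hochberg adjustment over 17031 genes in each comparison. Standard errors were taken as log2 fold change over the root of F. Log2 CPM used a prior count of 2. The procedure was tested on simulated data. The limit of 100 CPM that separates samples by Ttr lies in the gap of its values and served to count and describe samples only. Promoter windows are from RefSeq.

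The members, the lists and the tests were chosen with earlier results of these data known. Genes named are the 10 members, the 5 further genes of highest level, up to 5 called further genes per comparison by adjusted p, the 8 genes most alike, and the 2 leading genes of each other list. Genes of the midbrain in 1 sample were named after their values were seen. Alternatives were RLE normalization, plain library sizes, no filter, a prior count of 0.5, DESeq2 1.42.0, the cohort as a covariate, only the groups compared, a replicate block and leaving out each sample. Fits within a cohort were added after seeing the data. Replicates are separate samples by their labels, and whether each is a separate mouse is not given in the sources used here.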

Additional observations from a re-analysis of the deposited data

Results flagged for a closer look

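Groups of 4 or 5 samples were checked for a sample far from the others on the log2 CPM scale, with Dixon's 95% criterion, for the 10 genes in 4 groups. Of the 40 combinations, 9 passed it. Chance passes about 1 in 20 for genes not chosen by their spread, and since these 10 were chosen for varying between samples, that rate does not hold for them and the count is a description. In 8 of them the sample was WT-Tacr delayed replicate 2, which lay below the other 4 samples of its group. It had Ttr at 5.39 CPM, Folr1 at 0.598 CPM, Kl at 2.08 CPM, Clic6 at 3.02 CPM, Otx2 at 0.157 CPM, Sostdc1 at 0.472 CPM, Prlr at 0.945 CPM and Tmem72 at 0.346 CPM. These 8 genes vary together, so this is 1 sample rather than 8 separate events. For Aqp1 (5.67 CPM) and Kcnj13 (1.23 CPM) the same sample was the lowest of its group but did not pass the criterion. The sample's summed striatal (850 CPM), ependymal (41.9 CPM), hippocampal (33.4 CPM), thalamic (103 CPM) and hypothalamic (5.76 CPM) lists were the lowest of its group and its cortical list (363 CPM) the highest, while its meningeal list (773 CPM) lay inside the range of the group. Their part was not tested. The remaining sample was non-stroked WT replicate 1 for Otx2 (0.0285 CPM, 1 count), set apart below 3 samples of which replicate 3 also carried midbrain genes. The difference between the stroke responses of Rag2-/- or NSG and of WT mice was called for none of the 27 further genes by edgeR's adjusted p or by DESeq2, and by edgeR 17 and 0 of them had an unadjusted p below 0.05. Of all genes, 4.19% and 12.7% passed that unadjusted limit. The 17 genes are not separate events where they vary together, and the count is not given without stroked Rag2-/- replicate 1.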

How the results depend on the processing

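RLE normalization and no filter on low counts left every count of called genes, for both lists in all 13 comparisons, within 1.5 times its value. The fold between the highest and lowest sample of each gene and group (79 values) stayed within 1 SD under RLE and plain library sizes. The percent of variance between groups moved for 1 gene, Aqp1, which dropped to 31.1% within Imm2.

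Counts of calls moved with the test and the samples in the fit. The values are counts within the call limits for the 10 members and then for the 27 further genes. The members were chosen for varying between these samples, so their counts (1 for stroke in WT-Tacr delayed, 6 for delayed against acute and 0 in the other 11 comparisons in the fit of all groups) describe that choice and test nothing. With the cohort as a covariate, they were 0 and 0 for stroke in WT-Tacr delayed, 0 and 3 for delayed against acute, 1 member for stroke in Rag2-/- and 1 further gene for non-stroked NSG against Rag2-/-. In fits of only the groups compared, they were 0 and 0 for delayed against acute, 4 and 6 for NSG against Rag2-/- and 2 members for stroke in Rag2-/-. DESeq2 gave 5 and 5 for stroke in WT-Tacr acute, all lower, 9 and 15 for stroke in Rag2-/- and 7 and 9 for NSG against Rag2-/-, all higher. Imm2 alone gave 2 further genes for stroke in Rag2-/-, and TF alone 0 and 0 for delayed against acute. The cause of these moves was not tested. Except for DESeq2, the share of all genes called in these fits is not given here. The moves therefore cannot be set apart from those of all genes. With the replicate block, counts were 3 and 3 for NSG against Rag2-/- and 1 member, lower, for Rag2-/- against WT. Samples with the same number did not deviate together (correlations of -0.258 to 0.108 over 8 pairs), so they share only a number. For the stroke comparisons no paired fit was made, as the labels give stroked and control samples no shared numbers.

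Leaving out 1 sample at a time, members and further genes ran from 0 to 6 and from 0 to 12 for stroke in Rag2-/-, from 0 to 2 and from 4 to 12 for stroke in WT-Tacr delayed, and from 0 to 7 and from 0 to 19 for delayed against acute. For stroke in Rag2-/- both counts were 0 without stroked replicate 1 or any non-stroked Rag2-/- sample and, for delayed against acute, without acute replicate 1 or 2. They were from 0 to 1 and 0 for stroke in NSG (1 without stroked NSG replicate 3), from 0 to 1 for both in NSG against Rag2-/- (1 without non-stroked NSG replicate 4), 0 and from 0 to 1 for stroke in WT (1 without non-stroked WT replicate 4), and 0 in all other comparisons. Without WT-Tacr delayed replicate 5, or without non-stroked WT replicate 1, 3 or 5, 0 members were called for stroke in WT-Tacr delayed. For fits without 1 sample the share of all genes called is not given here either. At the depth of these libraries Otx2 and Tmem72 were at or below 3 counts in 4 and 5 samples, so lower levels could not be told from 0 there.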
